A study of Mus musculus with 2 samples.

Results

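The mitochondrial carriers form the solute carrier family 25 and are encoded by nuclear genes, most of them with symbols that begin with Slc25a. Most sit in the inner mitochondrial membrane and exchange nucleotides, phosphate, organic acids, amino acids, coenzymes and metals between the cytosol and the mitochondrial matrix. In heart muscle, ADP/ATP and phosphate carriers feed ATP synthesis, and the carnitine carrier brings in fatty acids as fuel. Sap130 is a subunit of the Sin3 complex, which recruits histone deacetylases to chromatin. The genes described here are those that the peak table names with a symbol beginning Slc25a. They number 33 genes with 42 of the 16697 peaks, and another 14 protein-coding Slc25a genes of the RefSeq gene table had no peak named for them.

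The peaks come from chromatin immunoprecipitation and sequencing (ChIP-seq) of embryonic mouse heart of genotype B6 wild type. There was 1 library made with a rabbit antibody against Sap130 at embryonic age E13.5, and 1 input library, unenriched chromatin, with the age label E13.6. The labels do not say how many hearts entered each library. With 1 library of each kind there was no replicate spread and no test between conditions, and every comparison below is a description of the peak list. The table holds no read counts, peak heights or p-values, and sequencing depth is therefore unknown. Of 9 genes that mark heart (such as Nkx2-5, Gata4 and Tnnt2), 8 had a named peak and Mef2c had none, against 52.6% of all protein-coding genes. In 7 of the 9 a peak was centred within 1 kb of the start, while Tbx5 had only peaks further away. Of 6 genes of other tissues 1, Neurod1, had a named peak, away from its start. Positions are given on mm10 as deposited, uncertain by 1 bp because the counting base is not stated. Width is end minus start. The row number of a peak is called its position in the order, 1 at the top, and the authors' reason for the order is not given in the labels or the table.

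All 33 named genes had a peak at the promoter, defined as a midpoint at most 1 kb away from the start of the named transcript. This was 33 of 47 Slc25a genes, 70.2% (95% exact Clopper-Pearson interval 55.1 to 82.7, counting error only), against 50.6% of 20953 protein-coding genes. Other solute carrier genes, with symbols beginning Slc followed by another family number, carried a promoter peak in 135 of 300 genes, 45% (39.3 to 50.8). Genes of a family are not replicates, so the share describes this peak list only. Over all protein-coding genes, 11031 had a named peak anywhere and 10601 of them 1 at the promoter.

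The promoter peaks of the carriers sat on or just inside the gene. Of 37 Slc25a promoter peaks, 30 (81.1%) contained the start site, against 73.7% of all 12760 promoter peaks. Their midpoints lay at a median of 176.5 bp downstream of the start, against 187 bp over all promoter peaks. The Slc25a midpoints ran from 468 bp upstream to 690.5 bp downstream. The midpoint was in exon 1 for 13, in intron 1 for 16 and upstream of the start for 7, and the remaining midpoint, that of Slc25a3, was in intron 2. The median width was 788 bp, with a range of 224 to 2117 bp, and the median over all promoter peaks was 785 bp. The carriers came early in the order. The earliest promoter peak of each Slc25a gene had a median position of 4360, and that of each protein-coding gene with a promoter peak one of 5882. Of the 33 Slc25a genes, 31 (93.9%) had their earliest promoter peak within the first 8348 positions, against 68.0% of all protein-coding genes with a promoter peak.

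**Figure D1:**
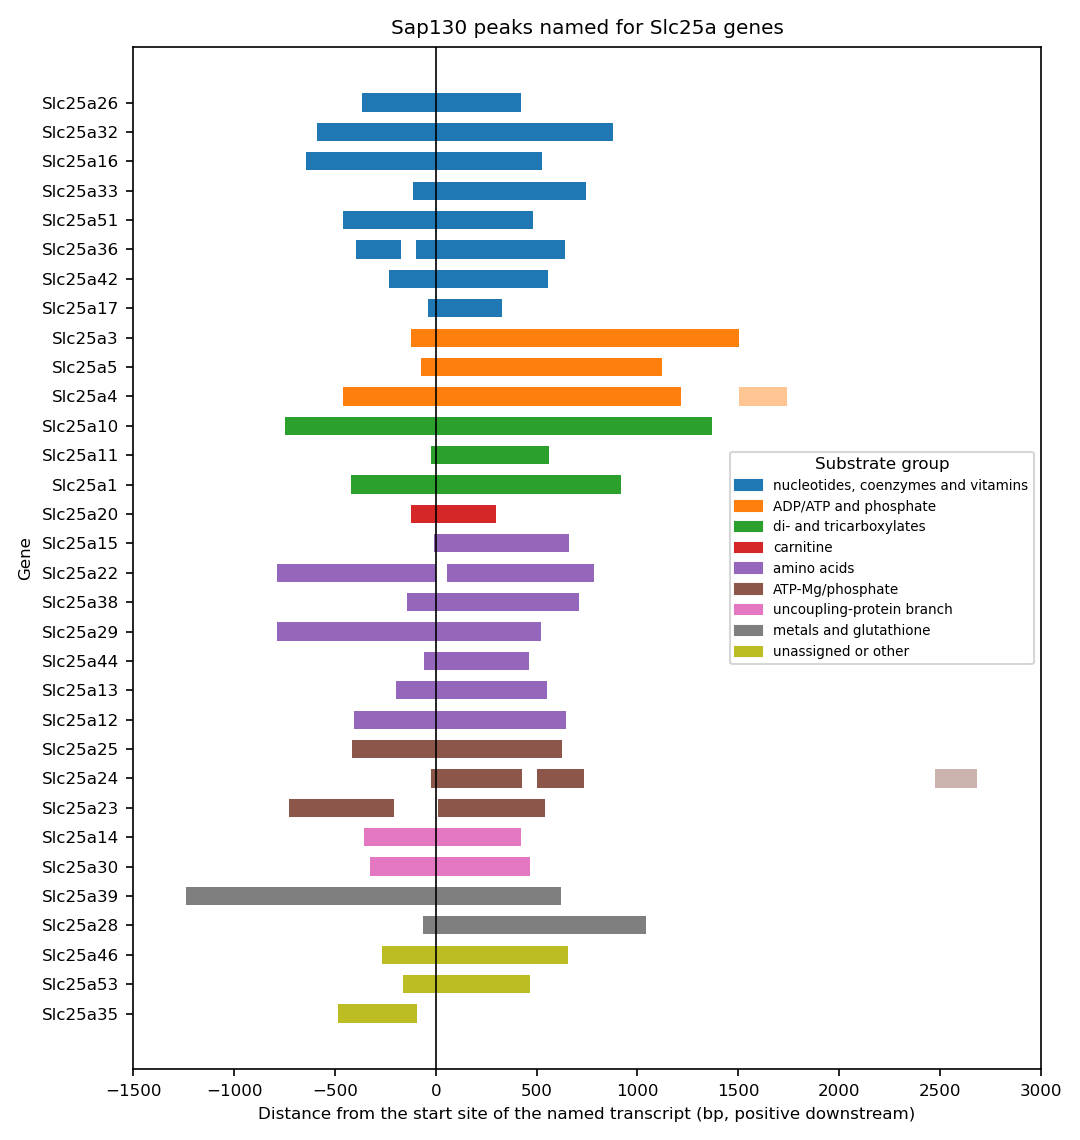
Extent of each Sap130 peak (bar) against the start site (0, vertical line) of the transcript named for it, in bp with positive values downstream, for 32 of the 33 Slc25a genes, coloured by substrate group. Paler bars have midpoints over 1 kb from the start, and the peaks of Slc25a1, Slc25a12 and Slc25a25 that lie more than 5 kb away are off the axis. The 2 bars of Slc25a22 are drawn against different transcripts. In 29 of the 33 genes, all of them drawn, the first peak in the order spans the start.

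Reference promoters of 5 carriers are printed to show what sequence lies under, beside or without a peak. They are the carriers whose main peak, taken as the gene's earliest promoter peak, comes first and last in the order among those with a promoter in the table, Slc25a16 and Slc25a17, the ADP/ATP carriers Slc25a4 and Slc25a5 of heart muscle and growing cells, and Slc25a40, whose start lay in a peak named for a neighbour. Each runs 5′ to 3′ on the gene's strand, from 250 bases before the RefSeq start to 50 bases from it, build GRCm38.p6. For Slc25a4 and Slc25a5 this RefSeq start (46211062 and 36795597) is not the start used to place their peaks. That is the start of the named transcript, 46211009 and 36795652, which lies just past the 3′ end of the printed bases. Capitals mark matches on either strand to 7 motifs: GGGCGG (the GC box bound by Sp factors), CCGGAAG (ETS factors), GCATGCG (a part of the NRF1 motif), CACGTG (the E-box), CCAAT (NF-Y), TATAAA (the TATA box) and TTCCCGC (E2F factors). The 11 matches in the printed sequences do not overlap each other. The promoter of Slc25a16 lies at chr10:62920383-62920682 on the plus strand and that of Slc25a4 at chr8:46211013-46211312 on the minus strand. The promoter of Slc25a5 lies at chrX:36795347-36795646 (plus), that of Slc25a17 at chr15:81360716-81361015 (minus) and that of Slc25a40 at chr5:8422588-8422887 (plus).
Slc25a16: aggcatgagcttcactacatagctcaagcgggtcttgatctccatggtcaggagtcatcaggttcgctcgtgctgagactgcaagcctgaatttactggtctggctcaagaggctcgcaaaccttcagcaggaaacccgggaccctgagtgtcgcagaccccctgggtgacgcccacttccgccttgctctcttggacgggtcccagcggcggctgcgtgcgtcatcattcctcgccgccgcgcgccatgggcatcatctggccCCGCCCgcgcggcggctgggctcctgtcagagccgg
Slc25a4: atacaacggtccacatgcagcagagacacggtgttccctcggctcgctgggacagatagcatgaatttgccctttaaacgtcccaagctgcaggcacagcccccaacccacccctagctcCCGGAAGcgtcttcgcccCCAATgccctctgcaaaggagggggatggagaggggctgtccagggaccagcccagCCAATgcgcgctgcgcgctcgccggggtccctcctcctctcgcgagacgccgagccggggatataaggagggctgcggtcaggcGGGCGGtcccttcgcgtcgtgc
Slc25a5: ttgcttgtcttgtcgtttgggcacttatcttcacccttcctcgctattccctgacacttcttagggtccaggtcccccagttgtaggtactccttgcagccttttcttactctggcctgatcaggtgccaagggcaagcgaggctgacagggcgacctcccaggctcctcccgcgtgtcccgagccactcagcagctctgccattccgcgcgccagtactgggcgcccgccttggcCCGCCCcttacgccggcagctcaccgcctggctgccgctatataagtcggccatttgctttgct
Slc25a17: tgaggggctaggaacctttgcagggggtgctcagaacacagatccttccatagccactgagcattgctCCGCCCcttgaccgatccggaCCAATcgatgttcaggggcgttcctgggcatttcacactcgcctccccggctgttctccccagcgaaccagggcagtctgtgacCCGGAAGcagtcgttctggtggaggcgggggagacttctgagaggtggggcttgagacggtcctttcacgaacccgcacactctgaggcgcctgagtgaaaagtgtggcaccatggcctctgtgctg
Slc25a40: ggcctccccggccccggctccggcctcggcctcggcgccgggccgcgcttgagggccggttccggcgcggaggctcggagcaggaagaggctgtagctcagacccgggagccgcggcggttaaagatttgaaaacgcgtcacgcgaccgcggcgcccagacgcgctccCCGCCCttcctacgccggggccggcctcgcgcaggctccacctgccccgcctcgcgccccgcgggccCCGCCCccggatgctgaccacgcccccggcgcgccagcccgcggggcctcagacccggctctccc

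All 300 bases lay inside a peak for Slc25a16, Slc25a4 and Slc25a40, while 67 did for Slc25a5 and 91 for Slc25a17. The printed Slc25a16 and Slc25a5 promoters each hold 1 GC box. Slc25a4 holds 1 GC box, 1 ETS match and 2 CCAAT matches, and Slc25a17 holds 1 of each of these 3 motifs. Slc25a40 holds 2 GC boxes and 47 CpG dinucleotides, the most of the 36 Slc25a promoters in the table, against 25 in Slc25a4, 24 in Slc25a16, 18 in Slc25a5 and 15 in Slc25a17.

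Carriers of nucleotides, coenzymes and vitamins had a promoter peak in every member, 9 of 9. The share was 70.2% over all Slc25a genes and 50.6% over all protein-coding genes. The substrate groups are small, were chosen with earlier results of these data known, and were not tested. The median earliest position of these 9 carriers was 2037. The carnitine group, with 1 member, was the only other group without a gap. Slc25a26, the carrier of S-adenosylmethionine, stood at position 58 with a peak of 785 bp at chr6:94499950-94500735. Its midpoint lay 28.5 bp downstream of the start, in exon 1. Slc25a32, a carrier of folate and FAD, came next at position 629 with a peak of 1470 bp (chr15:39111835-39113305, midpoint 146 bp downstream). These were the 2 earliest peaks named for Slc25a genes.

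Slc25a16, linked to coenzyme A in the matrix, had a peak of 1170 bp at position 1222 (chr10:62919991-62921161), centred 57 bp upstream of the start. The pyrimidine nucleotide carriers Slc25a33 and Slc25a36 stood at 1267 and 3560. The Slc25a33 peak, of 859 bp (chr4:149773521-149774380), and the main Slc25a36 peak, of 738 bp (chr9:97110400-97111138), both contained the start and were centred in intron 1, 316.5 and 272 bp downstream. Slc25a36 had a second, narrow peak of 224 bp upstream (position 16351, chr9:97111214-97111438), separated from the main peak by 76 bp. The NAD carrier Slc25a51 was at position 2037 with a peak of 938 bp centred 11 bp from its start (chr4:45408286-45409224), and the coenzyme A carrier Slc25a42 at 4397 with a peak of 789 bp (chr8:70211722-70212511).

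By each gene's earliest promoter peak, the last of this group in the order was Slc25a17, a carrier of the peroxisome. It had a peak of 370 bp at position 8746 (chr15:81360436-81360806), the narrowest among the main peaks of the 33 genes, and it contained the start.

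**Figure D2:**
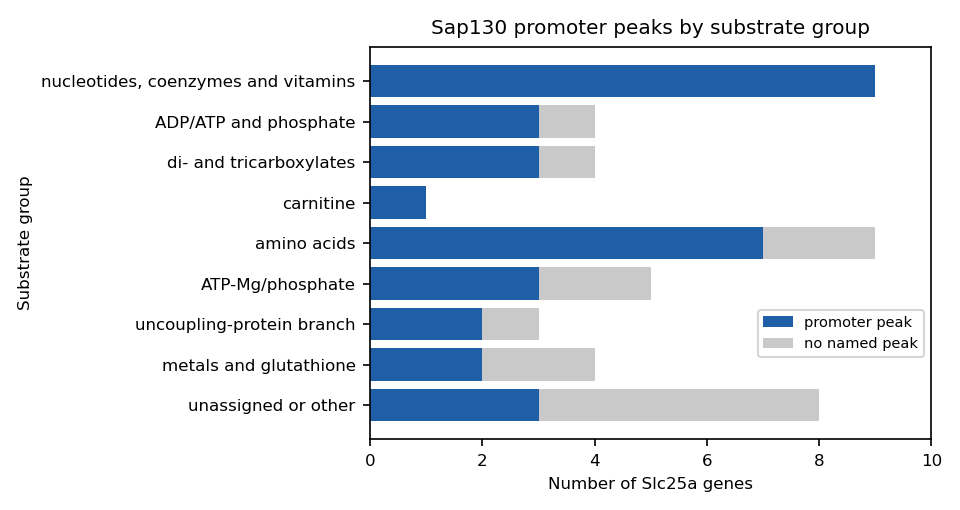
Number of Slc25a genes with a promoter peak (blue) and with no named peak (grey) in each substrate group. The group of nucleotides, coenzymes and vitamins has 9 of 9 with a peak, and the group of unassigned and other carriers has 3 of 8. The share with a promoter peak is 70.2% over all Slc25a genes and 50.6% over all protein-coding genes. The groups were not tested.

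The carriers that serve ATP synthesis had wide peaks reaching into the gene. The phosphate carrier Slc25a3 stood at position 2275 with 1627 bp (chr10:91122459-91124086), from 123 bp upstream to 1504 bp downstream of the start, centred in intron 2. Slc25a5, the ADP/ATP carrier prominent in proliferating cells, stood at 3625 with 1193 bp (chrX:36795580-36796773), from 72 bp upstream to 1121 bp downstream. Slc25a4, the ADP/ATP carrier of heart and skeletal muscle, stood at 4625 with 1673 bp (chr8:46209795-46211468), from 459 bp upstream to 1214 bp downstream. Each of these peaks contained the start site and was wider than the median promoter peak. Slc25a4 had another peak of 236 bp in coding exon 2, at chr8:46209267-46209503, 292 bp from the main peak and at position 16651 of 16697. Slc25a31, the ADP/ATP carrier known from germ cells, had no named peak, and the nearest peak midpoint lay 18916.5 bp from the gene.

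Among carriers of di- and tricarboxylates, Slc25a10, the dicarboxylate carrier, had the widest peak of the family, 2117 bp at position 1280 (chr11:120491090-120493207). It ran from 747 bp upstream to 1370 bp downstream of the start. Slc25a11, the exchanger of oxoglutarate and malate, had a peak of 586 bp at position 4360 (chr11:70646478-70647064), centred in coding exon 1. The citrate carrier Slc25a1, which exports citrate for lipid synthesis, had a peak of 1340 bp at position 4428 (chr16:17927298-17928638). Its second peak, of 1016 bp at position 6781 (chr16:17921430-17922446), was centred 3273 bp past the end of the transcript and overlapped no annotated gene, the nearest other gene being Gsc2 at 6403 bp. The oxodicarboxylate carrier Slc25a21 had none. The carnitine and acylcarnitine carrier Slc25a20, which brings fatty acids into the matrix, had 1 peak of 421 bp at position 6457 (chr9:108661975-108662396), across its start.

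Carriers of amino acids had promoter peaks in 7 of 9 cases, against 70.2% of all Slc25a genes and 50.6% of all protein-coding genes. The ornithine carrier Slc25a15 was first, at position 1807 with 667 bp (chr8:22397962-22398629), a peak that reached 8 bp upstream of the start. The glycine carrier Slc25a38, needed for haem synthesis, stood at 3257 with 853 bp (chr9:120110256-120111109), and Slc25a29, a carrier of basic amino acids, at 4125 with 1309 bp (chr12:108835355-108836664). Slc25a29 was among the carriers centred upstream, at 133.5 bp before the start. The aspartate and glutamate carriers of the malate-aspartate shuttle, Slc25a13 and Slc25a12, stood at 6492 and 7277. Their peaks of 747 bp (chr6:6216623-6217370) and 1051 bp (chr2:71366908-71367959) were centred 176.5 and 120.5 bp downstream. Slc25a12 had another peak of 251 bp far upstream, centred 9028.5 bp before the start and at position 16399 (chr2:71376457-71376708), in no annotated gene. Slc25a44, a carrier of branched-chain amino acids, stood at 6394 with 518 bp (chr3:88424677-88425195).

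The glutamate carrier Slc25a22 was bound at separate starts. Its peak at position 2503, of 731 bp (chr7:141437089-141437820), began 54 bp downstream of the upstream start at 141437874 and did not contain it. The peak at position 8030, of 788 bp (chr7:141434592-141435380), contained the RefSeq starts at 141434594 and 141435375, and lay 1709 bp from the other peak. The second glutamate carrier, Slc25a18, and the ornithine carrier Slc25a2 had no named peak.

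The calcium-regulated carriers of ATP-Mg and phosphate had the most peaks per gene, 7 peaks for Slc25a23, Slc25a24 and Slc25a25. Slc25a25 was earliest, at position 1508 with 1044 bp (chr2:32450842-32451886) across its upstream start. Its other peak, of 350 bp at position 11960 (chr2:32423716-32424066), was named for a transcript that starts 7260 bp from the peak's centre, but it ends on another RefSeq start of the gene, at 32424066. The RefSeq start between them, at 32431151, lay 7085 bp from the nearest peak.

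At Slc25a24 the peak over the start, of 449 bp at position 5091 (chr3:109123126-109123575), was followed by 2 narrow peaks in intron 1. These were of 232 bp at position 16297 (chr3:109123653-109123885) and of 207 bp at position 15017 (chr3:109125625-109125832), the narrowest peak of the family. Slc25a23 was flanked. Its peak of 529 bp at position 6437 (chr17:57059322-57059851) began 12 bp downstream of the named start, and a peak of 520 bp at position 13081 (chr17:57060071-57060591) ended 208 bp upstream of it. The first of these contained a RefSeq start at 57059842. Slc25a41 and Slc25a54, further members of this branch, had no named peak.

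In the branch related to uncoupling proteins, Slc25a14 and Slc25a30 had similar single peaks across the start. That of Slc25a14 was 783 bp wide at position 6692 (chrX:48623222-48624005) and that of Slc25a30 was 793 bp wide at position 7865 (chr14:75786569-75787362). Slc25a27 had no peak named for it, but the higher-coordinate edge of its annotated span, 43667214 on chromosome 17, lay inside a peak of 1196 bp named for Cyp39a1 (position 1186, chr17:43666720-43667916). The RefSeq gene table used here gives no strand, so whether this edge is the start or the end of the gene was not read from it.

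Among carriers of metals and glutathione, Slc25a39, a carrier of glutathione, had a peak of 1863 bp at position 1847 (chr11:102406894-102408757), the second widest of the family and reaching 1240 bp upstream. Slc25a28, mitoferrin 2, which imports iron, had a peak of 1107 bp at position 5555 (chr19:43673837-43674944), from 63 bp upstream to 1044 bp downstream. Its paralogue Slc25a37, mitoferrin 1, known from red cell precursors, had no named peak, and the nearest peak midpoint lay 211906 bp away. Slc25a40, the paralogue of Slc25a39, had none named either. Its RefSeq start at 8422838 nevertheless lay inside a peak of 1460 bp at position 225 (chr5:8421878-8423338) that the table names for Dbf4, the activator of the replication kinase Cdc7. Dbf4 starts 122 bp away on the other strand. A single name per peak cannot show which start the signal belongs to, and that peak stands earlier than all but Slc25a26 among the named Slc25a peaks.

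Of the remaining carriers 3 of 8 had a named peak, against 52.6% of all protein-coding genes, and groups of this size were not tested. Slc25a46, an outer membrane protein that acts in mitochondrial dynamics, had a peak of 922 bp at position 1410 (chr18:31609245-31610167). Slc25a53 had 1 of 629 bp at position 7943 (chrX:137037834-137038463), across the start, and its other RefSeq start at 136993032 was 44802 bp from the nearest peak. Slc25a35 had the latest earliest peak of the named Slc25a genes, 395 bp at position 11114 (chr11:68967645-68968040), which ended 91 bp upstream of the start. No peak was named for Slc25a34, Slc25a43, Slc25a45, Slc25a47 and Slc25a48.

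Slc25a genes with more than 1 named peak numbered 8. Of the 33, 21.2% had 2 peaks and 3.03% had 3 or more, against 17.2% and 5.93% of the 11031 protein-coding genes with a named peak. Of the 9 peaks beyond the earliest of each gene, 7 were narrower than the median peak of 682 bp. These 9 were picked for coming later in the order, where promoter peaks of all genes were also narrower. The same share for all genes with several peaks was not computed. Across the 37 Slc25a promoter peaks, earlier peaks were wider (Spearman rho -0.63, a description across peaks that share 1 library), and the value over all 12760 promoter peaks was -0.70.

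**Figure D3:**
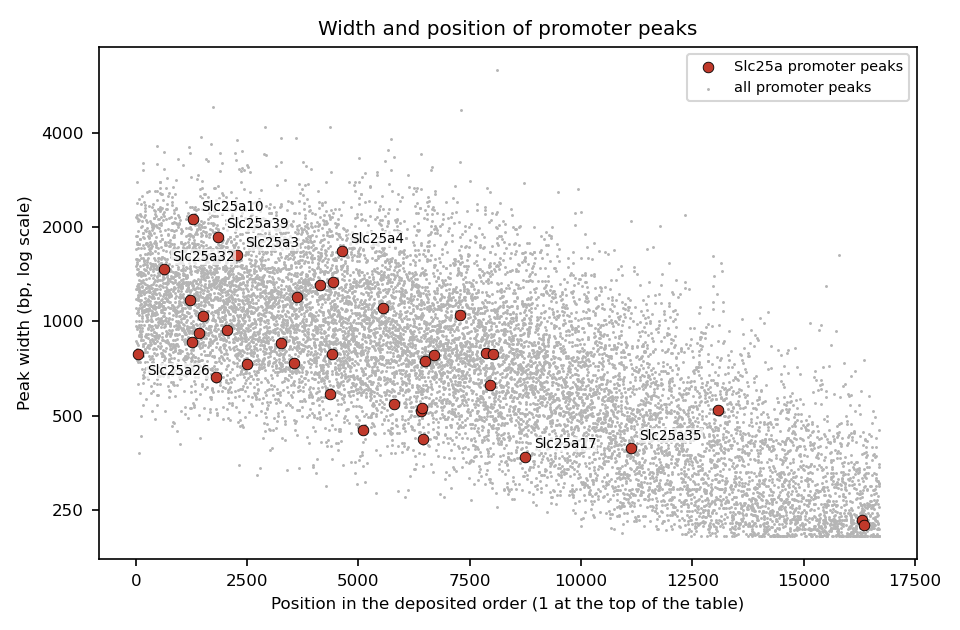
Width in bp (log scale) against position in the deposited order for the 37 Slc25a promoter peaks (red) and all 12760 promoter peaks (grey). Slc25a26 is the earliest at position 58, Slc25a10 the widest at 2117 bp, and 31 of 33 Slc25a genes have their earliest promoter peak in the first 8348 positions.

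Of the 14 Slc25a genes without a named peak, 2, Slc25a27 and Slc25a40, had a peak of another name centred 1 kb or less from an end. The other 12 had none there, and for 8 of the 14 no peak midpoint lay within 10 kb of the gene. Where RefSeq gave starts for genes with a named peak, 31 of 35 starts lay inside a peak.

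Slc25a promoters with a peak held more CpG than those without, given here as a description. Of 47 Slc25a genes, 36 had a promoter in the RefSeq table, 26 with a promoter peak and 10 without a named peak. The ratio of observed to expected CpG had a median of 0.765 in the 26 with a peak and 0.422 in the 10 without. Over all protein-coding genes in the table the medians were 0.803 in 8540 genes with a promoter peak and 0.249 in 8243 without. A ratio of 0.6 or more, a usual bound for CpG islands, was reached by 17 of the 26, 65.4%, and by 2 of the 10. Over all genes it was reached by 82.0% of those with a promoter peak, 19.1% of those without and 51.1% of all promoters. The share among Slc25a promoters with a peak was thus below that of all genes with a promoter peak, and the share among those without was close to that of all genes without. The 2 were Slc25a40 at 1.02, whose start lies in the Dbf4 peak, and Slc25a31 at 0.826, with no peak near. Slc25a22 had the lowest ratio with a peak, 0.302, in an upstream promoter of which 0 bases lay inside a peak. Base composition was not matched between these groups, and its part in the presence of a peak was not tested.

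**Figure D4:**
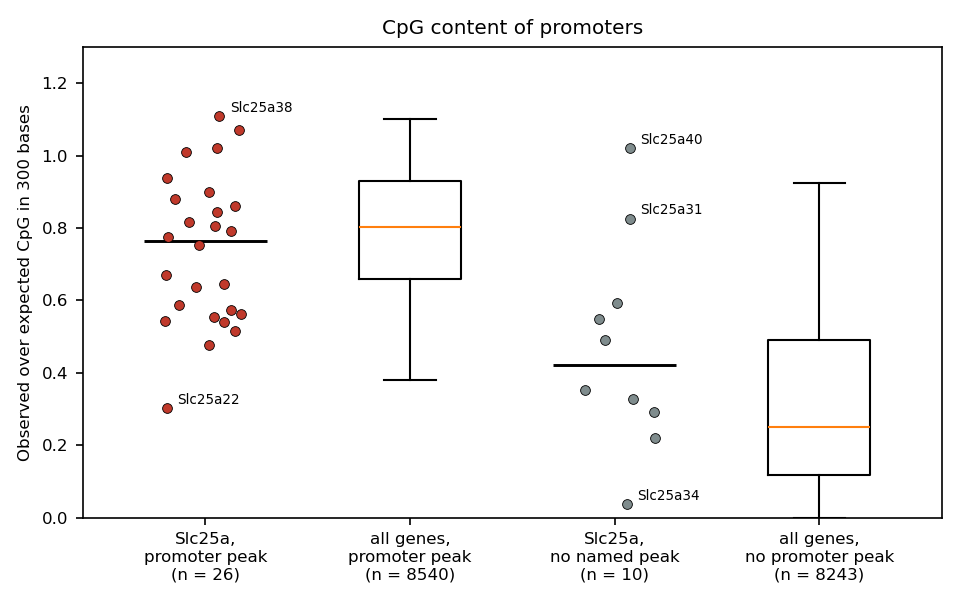
Observed over expected CpG in the 300 bases around the RefSeq start. Points are Slc25a promoters with their median as a bar, and boxes give the median and quartiles of all protein-coding genes, with whiskers at the 5 and 95 percentiles. The Slc25a promoters with a peak have a median of 0.765 and those without a named peak one of 0.422.

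The GC box GGGCGG was present on either strand in 24 of the 26 Slc25a promoters with a peak, 92.3%, and in 6 of the 10 without. Its share was 71.9% over all genes with a promoter peak and 48.9% over all 16783 promoters. Among all genes without a promoter peak, 2064 of 8243 promoters held the GC box. Slc25a promoters thus held it more often than those of all genes, both with and without a peak. CCAAT was found in 14 of the 26, 53.8%, and 3 of the 10, against 38.1% of promoters of all genes with a promoter peak and 39% of all promoters. Among all genes without a promoter peak, 3295 of 8243 promoters held CCAAT. The ETS match was in 6 of the 26, 23.1%, close to the 19.2% of all genes with a promoter peak. It was in 1 of the 10, with 5.79% over all genes without a promoter peak and 12.6% over all promoters. CACGTG was in 5 of the 26, 19.2%, and 1 of the 10. Over all genes it was in 10.7% of those with a promoter peak, 5.41% of those without and 8.09% of all promoters. The exact string TATAAA was in 0 of the 26 and, of the 10, in Slc25a18 alone. Its share was 5.89% of all genes with a promoter peak, 20.5% of those without and 13.1% of all promoters. Other forms of the TATA box, such as the TATAAG in the printed Slc25a4 and Slc25a5 promoters, were not searched for. GCATGCG was in 0 of the 26 and in Slc25a31 and Slc25a54 of the 10, against 7.21%, 2.07% and 4.69% for the same sets of all genes. TTCCCGC was in Slc25a11 and Slc25a31, against 9.44%, 3.11% and 6.33%. Counts of 0 to 6 among 26 promoters are few, and the motif shares were not tested. A match is a string of letters and not a measured binding site.

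Other genes of mitochondrial transport were also often named. Of 12 genes that import carrier proteins into mitochondria, 9 had a promoter peak, 75% (42.8 to 94.5), against 50.6% of protein-coding genes. Timm13, a small chaperone of the intermembrane space, stood at position 460, Timm10 at 609, the carrier receptor gene Tomm70a at 688 and Tomm40, the outer membrane channel, at 740. Timm22, the inner membrane translocase for carriers, stood at 5868, and Timm8b, Timm9 and Timm29 had no named peak. Of 22 other membrane transporters and relatives of mitochondria, 19 had a promoter peak, 86.4% (65.1 to 97.1). Mtch1 and Mtch2, carrier-like proteins of the outer membrane, stood at 288 and 2059. Of the uncoupling proteins, which belong to the same family under other symbols, Ucp2 had 3 named peaks, the earliest at 12893, and Ucp1 and Ucp3 had none. The pyruvate carrier gene Mpc1 stood at 4404 with 1876 bp, and Mpc2 had no named peak.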

How the data were processed

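Per the labels, Sap130 ChIP and input chromatin of B6 wild-type mouse heart were sequenced, 1 library each. The submitters' processing notes name Bowtie 1.1.2, MACS2 2.1.0.20140616 and the builds GRCm38 and mm10. Parameters, thresholds, filters and how genes were assigned are not given in the labels or file, and could change the number, width and names of peaks. The authors deposited 1 table with peak start and end in bp and, per the file headers, a row number, treated as a score with no unit. Transcript positions in the table count from 0 (with 1 added, 45.9% of 11692 accessions matched the start of their gene in RefSeq GRCm38.p6, and 4.05% without), so 1 was added.

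Peaks were linked to genes by accession without version, symbol or synonym on the same chromosome (25 of 15171 named peaks were not matched). As background served protein-coding genes that have a curated RefSeq transcript, with chromosome Y, mitochondrial DNA and contigs left out. Promoters came from RefSeq and cover 16783 of these genes. Genes with several promoters were represented by the one nearest the start named for their earliest promoter peak, otherwise by the first listed. Placement was tested on simulated peaks set with the same start formula. This checks the arithmetic and cannot show a wrong start site or counting base. The members, groups and lists were chosen with earlier results of these data known, and other solute carriers, neighbouring pairs and divergent starts were added later. Slc25a genes with or without a row are named, except 1 that enters the counts and is not reported here by name. Substrate groups follow textbook knowledge. Intervals are exact and cover counting error only. Alternatives are in the closing section. Calculations used Python 3.11.15, pandas 2.3.3, NumPy 2.4.6 and SciPy 1.17.1.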

Additional observations from a re-analysis of the deposited data

How the results depend on the processing

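No paired analysis was possible because there was 1 library of each kind, and no library could be left out. The count of 33 of 47 Slc25a genes with a promoter peak lay between 23 and 35 under 8 alternatives and was within 1.5 times the value in each. It was 31 with a window of 500 bp, which drops Slc25a3 and Slc25a5, 31 among the first 8348 positions, which drops Slc25a17 and Slc25a35, and 35 with a peak of any name at either gene end, which adds Slc25a27 and Slc25a40. Only peaks of at least 682 bp, the median width, left 23 (48.9%), and the count over all protein-coding genes fell to 7048 (33.6%), by construction, since fewer peaks enter. The other 7 alternatives left the count over all genes between 7211 and 11031. The medians of width (785 to 793 bp), position (4360 to 4625) and distance (159 to 196 bp) stayed within the 95% order-statistic interval of the median under 3 alternatives each, and the number of peaks containing the start lay between 28 and 30. Read depth and enrichment per peak are unknown, so peaks below the authors' threshold cannot be told from absent ones.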

Other observations

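Slc25a genes that lie next to each other differed in whether a peak was named. The gene table holds 4 pairs of neighbouring Slc25a genes less than 100 kb apart, and in each of the 4 exactly 1 gene was named. On chromosome 3 Slc25a24 had 3 peaks and Slc25a54, 6567 bp away, had 0. On chromosome 12 Slc25a29 had 1 and Slc25a47, 13957 bp away, had 0. On chromosome 17 Slc25a23 had 2 and Slc25a41, 2057 bp away, had 0. On the X chromosome Slc25a5 had 1 and Slc25a43, 18290 bp away, had 0. The share of such pairs among all neighbouring genes was not computed. A named peak was present in 33 of 47 Slc25a genes and 52.6% of all protein-coding genes, so mixed pairs are not particular to this family. The pairs were looked for after the data were seen, and 4 pairs allow no test.

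Several carrier promoters share their start region with a gene on the other strand. RefSeq starts of another gene lay within 1 kb upstream for Slc25a11 (Rnf167, 196 bp), Slc25a15 (1810012K16Rik, 100 bp), Slc25a24 (Gm19391, 75 bp), Slc25a28 (BC037704, 297 bp), Slc25a40 (Dbf4, 122 bp) and an unbound start of Slc25a53 (Zcchc18, 115 bp). Slc25a11, Slc25a15 and Slc25a28 had separate peaks named for both partners. At Slc25a24 the carrier alone was named, and at Slc25a40 the partner alone. Only the 36 of 47 Slc25a genes with a RefSeq promoter could be examined, so the list may be incomplete. The share of such starts over all genes was not computed.

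Slc25a4 and Slc25a5 are closely related in sequence, and how reads that match several places were treated is not stated. The 2 pseudogenes that the gene table ties to Slc25a5 by symbol or synonym, Gm5560 and Slc25a5-ps, overlapped 0 peaks. The part of shared reads in the narrow exon 2 peak of Slc25a4 was not tested.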
